A study of Mus musculus with 4 samples.

Results

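The genes of sterol and fatty acid synthesis were followed across the 2 ends of the intestinal epithelium, in RNA from differentiated villus enterocytes and from Lgr5(hi) stem cells of the crypt base. Of 44 listed genes of these pathways, 42 had a probe set of their own among the 12393 genes measured. They comprised 19 sterol synthesis genes, 5 genes that control the sterol-sensing factors SREBP, and 18 fatty acid synthesis genes. Acat2 and Mbtps2 lacked an unshared probe set in the platform annotation and were not analysed here. Where a gene had several probe sets, the brightest on average was read.

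The enterocyte group held 2 arrays of villus cells, released with EDTA from mice with a conditional knockout of Atoh1 in the intestinal epithelium. Atoh1 is the transcription factor that secretory cells need, and it was deleted so that the villus would hold enterocytes. The stem group held 2 arrays of Lgr5(hi) cells isolated from wild-type mice by flow sorting. All 4 samples were proximal intestinal epithelium of C57BL/6 mice aged 4 to 6 weeks, and every sample, wild type included, is labelled as having had tamoxifen at 1 mg daily for 5 days and then 5 days without it. The sources used here name neither the Cre driver nor the number of animals behind each array. The labels call the samples biological replicates without naming animals, so p-values measure only the spread between these arrays. The groups differ at once in cell type, in genotype and in how cells were isolated, and these cannot be told apart. In bulk RNA, fewer cells of a type and less RNA per cell cannot be told apart either.

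Labels and markers matched. Atoh1 had intensities of 33.4 and 38.7 in the enterocyte arrays, against 173 and 209 in the stem arrays (-2.40 on the log2 scale, adjusted p = 0.00423 by limma), and Lgr5 had 121 and 68.1 against 2572 and 1989.5. Of 14 enterocyte markers all 14 were higher in enterocytes, and of 12 stem cell markers all 12 were lower. Several other cell types moved with the groups. Goblet cell markers were lower in 7 of 8 cases, with summed intensities of 675 to 1226 in enterocyte and 35949 to 42132 in stem arrays, and Spdef, Zg16, Clca1 and Retnlb below the background level in enterocytes. Paneth cell markers were lower in 2 of 5 cases (678 to 6088 against 34467 to 47231), and enteroendocrine markers in 8 of 12 (887 to 986 against 9848 to 12273). Lymphocyte markers were higher in 10 of 12 cases (8791 to 11850 against 684 to 943), with 10 of the 12, Ptprc, Cd3e and Cd8a among them, below background in the stem arrays, and tuft cell markers in 6 of 7 (3634 to 5426 against 648 to 1039). The part of these cells in the results below was not tested. All 12 stromal and vascular markers were below background in the enterocyte arrays, and 11 of 12 were in the stem arrays. Of 7 macrophage and adipocyte markers 2 were lower (339 to 416 against 1725 to 2543), and all 7 lay below background in the enterocyte arrays and 5 in the stem arrays. Most of the stem sum came from Lyz2, at 1342 and 2196, while the other lower gene, Cd68, read 144 and 80.8. Background was set at an intensity of 108 (log2 6.75), the 90th percentile of 26 genes of other organs. Of these, Mbp, Oxt and Acta1 read above that level on every array, so the level is a high one. The 75th percentile was 46.0, and at that level the members Ggps1, Acacb, Me1, Fads3 and Thrsp lay above background in both groups.

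Cells make cholesterol from acetyl-CoA through mevalonate, farnesyl diphosphate, squalene and lanosterol, and they make fatty acids from the same acetyl-CoA through malonyl-CoA. Both pathways are driven by the SREBP factors, which the escort protein Scap carries out of the endoplasmic reticulum when sterols are low and the Insig proteins hold back when sterols are high. The small intestine both synthesises sterols and absorbs them from food, and enterocytes package absorbed and newly made lipid into chylomicrons.

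The pathways did not move as a block. At an adjusted p under 0.05 by limma, enterocytes had higher levels of 11 of the 42 members and lower levels of 12, and 19 did not pass. Among all 12393 genes, 18.2% were higher, 22.4% lower and 40.6% either, against 26.2%, 28.6% and 54.8% of the members. The members' median log2 difference, enterocyte minus stem, was -0.06, and that of all genes -0.00261. Sterol genes had 7 rises and 3 falls in 19, SREBP control genes 1 and 2 in 5, and fatty acid genes 3 and 7 in 18, with medians of 0.09, -0.23 and -0.14. These medians depended on the processing. The sterol median was 0.39 and 0.46 with the mean and the median over probe sets, and -0.53 and -0.30 under the reference-gene centrings described below. The SREBP control median was 0.17 to 0.19 with the mean, median or dimmest probe set, and the fatty acid median -1.33 with genes below background left out. Both enterocyte values lay above both stem values in 17 members and below them in 19, against 30.5% and 34.8% of all genes (36 of 42 members against 65.3% in either direction). Without stem replicate 1 or without stem replicate 2 no gene of the 12393 passed by limma, members included (15 and 14 members and 4675 and 4817 genes had an unadjusted p under 0.05). Of the 23 member calls, 9 held without either enterocyte array in turn: those of Fdps, Fdft1, Tm7sf2, Sc5d, Scap, Fasn, Me1, Fads1 and Elovl6. Centring each array on the median or on the mean of 7 reference genes lowered every difference by 0.62 or 0.39, and 3 of those 7 genes were themselves higher in enterocytes. Under the 2 centrings sterol genes had 5 rises and 8 falls or 7 and 9, and fatty acid genes 4 and 13 in both, and no called member changed direction. With values raised to the background level, the calls of Pmvk, Ggps1, Fdft1, Tm7sf2, Srebf2, Acss2, Fasn, Fads1 and Fads2 were lost at unaltered or smaller differences (adjusted p = 0.0522 to 0.0846).

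**Figure D1:**
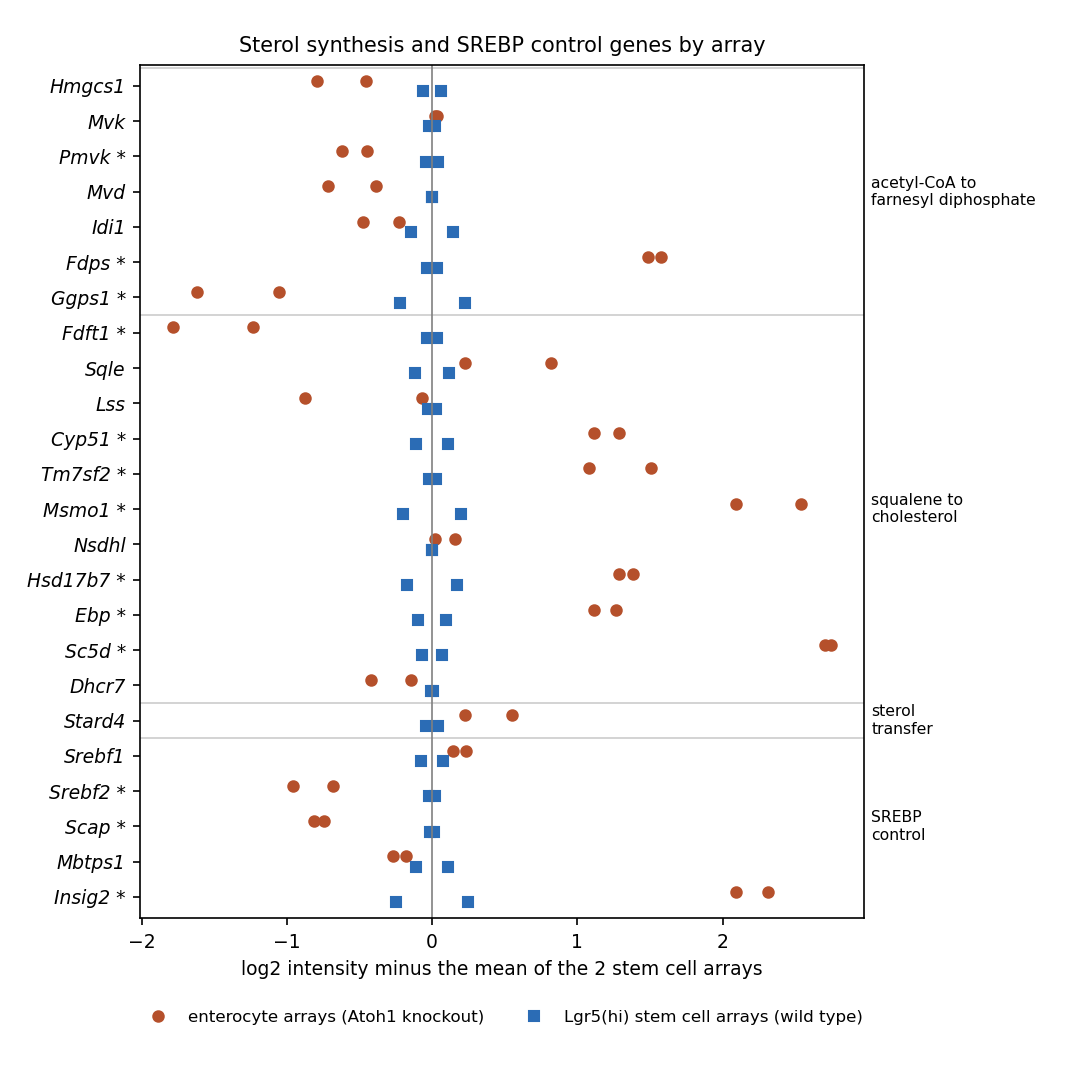
Log2 intensity of each sterol synthesis and SREBP control gene on each array, minus the mean of the 2 stem arrays of that gene. Circles are the 2 enterocyte arrays, squares the 2 stem arrays, and an asterisk marks an adjusted p under 0.05. From Cyp51 to Sc5d every gene but Nsdhl lies to the right of 0 by more than 1 in both enterocyte arrays, while most genes of the earlier steps lie at or left of 0.

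In the first steps of the sterol pathway, changes that passed the test went both ways. From acetyl-CoA to the isoprenoid diphosphates, there were 1 rise and 2 falls among 7 genes, with a median log2 difference of -0.54. Among all genes, 18.2% rose and 22.4% fell. Hmgcs1, which makes HMG-CoA in the cytosol, had intensities of 2164 and 2728 in enterocytes, against 3905 and 3593 in stem cells. Its difference of -0.62 ± 0.15 (SE, n = 2 arrays per group, as for every SE below) did not pass (adjusted p = 0.0516), although the groups did not overlap. Its 3 other probe sets pointed the other way, at 0.31, 0.62 and 1.24, the last past the threshold (adjusted p = 0.0106 over all probe sets), so no direction can be given for Hmgcs1.

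Mevalonate kinase, encoded by Mvk, read 151 and 152 in enterocytes and 147 and 151 in stem cells, values that overlapped. Pmvk, the next kinase, read 216 and 192 against 304 and 287 in stem cells. It was 1.45-fold lower (-0.54 ± 0.09, adjusted p = 0.0242). The decarboxylase gene Mvd, at 165 and 131 against 215 in both stem arrays, did not pass (-0.55 ± 0.14, adjusted p = 0.0589), nor did Idi1, which isomerises isopentenyl diphosphate, at 903 and 1071 against 1383 and 1135 (-0.35 ± 0.16, adjusted p = 0.19). Both lay lower in enterocytes without overlap on these probe sets, but the other probe set of Mvd read 221 and 160 against 160 and 143, higher and overlapping (0.32, adjusted p = 0.334 over all probe sets).

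At the branch point, Fdps and Ggps1 went opposite ways. Fdps, the synthase of farnesyl diphosphate, from which sterols and prenyl groups are made, read 648 and 608 in enterocytes and 223 and 211 in stem cells, a 2.89-fold rise (1.53 ± 0.07, adjusted p = 0.00323). Ggps1 extends farnesyl to geranylgeranyl diphosphate, a lipid that is attached to proteins. It read 79.5 and 118 in enterocytes against 209 and 285 in stem cells, at least 2.17-fold lower given the background level (-1.34 ± 0.29, adjusted p = 0.0415). Its 3 other probe sets gave 0.09 to 0.86, none past the threshold, so the fall of Ggps1 rests on 1 of 4 probe sets.

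From squalene onward, there were 6 rises and 1 fall among 11 genes, with a median of 1.19. Of all 12393 genes, 18.2% rose and 22.4% fell. The fall among the 11 was that of Fdft1, squalene synthase, the entry to the sterol branch. Fdft1 read 844 and 575 in enterocytes against 2027 and 1933 in stem cells, 2.84-fold lower (-1.51 ± 0.22, adjusted p = 0.0185). Its other probe set above background gave -0.36 and did not pass (adjusted p = 0.226), and the brightest one has a name that marks possible cross-hybridisation. Squalene epoxidase, Sqle, read 651 and 431 against 400.1 and 339 (0.52 ± 0.26, adjusted p = 0.223). Lanosterol synthase, Lss, read 292 and 167 against 301 and 313 (-0.47 ± 0.32, adjusted p = 0.347), and a dimmer Lss probe set, below background in enterocytes, passed as lower (-0.64, adjusted p = 0.00966 over all probe sets). In both genes the 2 enterocyte arrays stood further apart than the stem arrays did, with enterocyte replicate 1 the higher.

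The steps that turn lanosterol into cholesterol held 6 of the 7 sterol rises, the other being that of Fdps. Cyp51, the lanosterol demethylase, read 633 and 562 in enterocytes against 281 and 241 in stem cells (2.29-fold, 1.20 ± 0.12, adjusted p = 0.0087). Its middle probe set gave 0.67 and did not pass (adjusted p = 0.215). Tm7sf2, the sterol reductase that follows, read 489 and 364 against 175 and 169 (2.45-fold, 1.29 ± 0.18, adjusted p = 0.0152). Msmo1, the oxidase that starts removal of the remaining methyl groups, read 1428 and 1047 against 282 and 214 (4.98-fold, 2.32 ± 0.24, adjusted p = 0.00924). Its partners in that removal differed from each other. Nsdhl, the decarboxylating dehydrogenase, read 448 and 409 against 402 in both stem arrays (0.09 ± 0.07, adjusted p = 0.414), while Hsd17b7, the keto-reductase, read 338 and 316 against 115 and 146 (2.53-fold, 1.34 ± 0.15, adjusted p = 0.0104). A second Hsd17b7 probe set also rose, by 1.15.

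Ebp, the sterol isomerase, read 1863 and 1672 in enterocytes against 825 and 724 in stem cells (2.28-fold, 1.19 ± 0.11, adjusted p = 0.00739). The largest sterol difference was that of Sc5d, lathosterol oxidase, at 1705 and 1656 against 266 and 242 (6.62-fold, 2.73 ± 0.08, adjusted p = 0.00261). Dhcr7, the reductase that yields cholesterol from dehydrocholesterol, did not follow them: it read 531 and 439 against 589.5 and 586, lower in both enterocyte arrays but not past the test (-0.28 ± 0.12, adjusted p = 0.169). With reference-gene median centring Cyp51 (0.58, adjusted p = 0.0572) and Ebp (0.57, adjusted p = 0.0601) no longer passed. Stard4, a carrier of cholesterol between membranes, read 806 and 1009 against 671 and 710.5 (0.39 ± 0.14, adjusted p = 0.128), and its other probe set rose by 0.60 (adjusted p = 0.00898 over all probe sets).

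Promoter sequence was examined as a feature that the arrays did not measure. In the RefSeq promoter table (GRCm38.p6, 250 bases before to 50 after each start), 35 of the 42 members had an entry. Fdps, Fdft1, Sqle, Stard4, Scd1, Scd2 and Fads1 had none. The NF-Y box CCAAT, read on both strands, is bound by NF-Y, a factor that works beside SREBP at many sterol genes. It occurred in 28 of the 35 members (80%), against 42.3% of the 9887 tested genes with an entry, and in 61.7% of the members' 47 promoters, against 37.4% of all 32851. It was present in 16 of the 20 members with a call and an entry. All 6 late sterol genes that rose held it, and so did Lss, Nsdhl and Dhcr7, the late sterol genes with an entry that did not rise. Their stretches from the first to the last box before the start, with 15 bases on each side where these lie before the start, are shown because these genes rose together, on the strand of the gene, with each box or its reverse complement ATTGG in capitals.
Cyp51, chr5:4104707-4104741, minus strand: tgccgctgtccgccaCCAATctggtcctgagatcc
Tm7sf2, chr19:6067878-6067912, minus strand: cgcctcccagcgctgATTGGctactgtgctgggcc
Msmo1, chr8:64733614-64733753, minus strand: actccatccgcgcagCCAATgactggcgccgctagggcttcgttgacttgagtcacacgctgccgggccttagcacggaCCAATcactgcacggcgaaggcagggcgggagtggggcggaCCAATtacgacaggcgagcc
Hsd17b7, chr1:169969206-169969385, minus strand: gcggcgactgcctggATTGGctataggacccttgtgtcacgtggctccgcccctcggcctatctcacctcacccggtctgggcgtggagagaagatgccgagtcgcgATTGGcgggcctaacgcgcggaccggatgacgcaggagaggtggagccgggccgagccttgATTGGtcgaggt
Ebp, chrX:8193548-8193697, minus strand: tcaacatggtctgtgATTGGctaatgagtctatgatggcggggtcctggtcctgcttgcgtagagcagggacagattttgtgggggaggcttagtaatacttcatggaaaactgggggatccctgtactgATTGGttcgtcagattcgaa
Sc5d, chr9:42264305-42264339, minus strand: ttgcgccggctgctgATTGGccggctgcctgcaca

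Msmo1 and Hsd17b7 held 3 boxes each, Ebp 2, and Cyp51, Tm7sf2 and Sc5d 1. Genes that fell held the box too: Fasn, whose product assembles palmitate, held 3, of which 2 overlap on opposite strands, and Acss2 held 1.
Fasn, chr11:120824587-120824652, minus strand: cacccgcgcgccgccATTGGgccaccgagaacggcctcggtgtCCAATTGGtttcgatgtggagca
Acss2, chr2:155517955-155517989, plus strand: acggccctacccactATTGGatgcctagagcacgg

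A match of letters is a description and not a binding site. The core of the sterol response element, TCACNCCAC on both strands, occurred in 2 of the 35 members and in 1.5% of the tested genes, and the longer form known from the LDL receptor gene in 0 of the 35 and 0.0607%. The E-box CACGTG occurred in 6 of 35 members (17.1%, against 10.8% of tested genes) and the GC box GGGCGG in 27 of 35 (77.1%, against 61% of tested genes). The 2 stretches with the sterol element core, in capitals with 30 bases on each side, belong to a sterol enzyme, Hmgcs1, and to a lipogenic transcription factor, Mlxipl.
Hmgcs1, chr13:119690184-119690252, plus strand: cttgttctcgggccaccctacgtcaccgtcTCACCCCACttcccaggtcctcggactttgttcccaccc
Mlxipl, chr5:135106725-135106793, plus strand: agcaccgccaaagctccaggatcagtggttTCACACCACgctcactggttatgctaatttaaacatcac

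Among genes of SREBP control, the brake was higher and the escort lower in enterocytes. Insig2, which holds SREBP and Scap in the endoplasmic reticulum, read 544 and 633 in enterocytes against 152 and 108 in stem cells, 4.59-fold higher (2.20 ± 0.22, adjusted p = 0.00847). All 3 of its probe sets passed, at 2.15 to 2.51, but leaving out any 1 of the 4 arrays ended the call (1.95 to 2.45, adjusted p = 0.0627 to 0.103). Scap read 436 and 416 against 739 and 724, 1.72-fold lower (-0.78 ± 0.06, adjusted p = 0.00552). Srebf2, the factor that mainly drives sterol genes, read 259 and 214 against 422 and 410.3, 1.77-fold lower (-0.82 ± 0.12, adjusted p = 0.0177). Its dimmer probe set gave -0.07 (adjusted p = 0.526), so the 2 probe sets of Srebf2 disagree on the size. Srebf1, which mainly drives fatty acid genes, read 1022 and 1091 against 977 and 879 (0.19 ± 0.09, adjusted p = 0.199), and the probe set does not tell its isoforms apart. Mbtps1, the protease that makes the first cut in SREBP, read 1220.4 and 1296 against 1588 and 1363 (-0.23 ± 0.11, adjusted p = 0.205). Its other probe sets, below background, gave 0.21 and 0.52. On their brightest probe sets Srebf1 and Mbtps1 did not overlap between groups, with Srebf1 higher and Mbtps1 lower in enterocytes. These arrays measure transcripts and not the cleavage of SREBP.

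**Figure D2:**
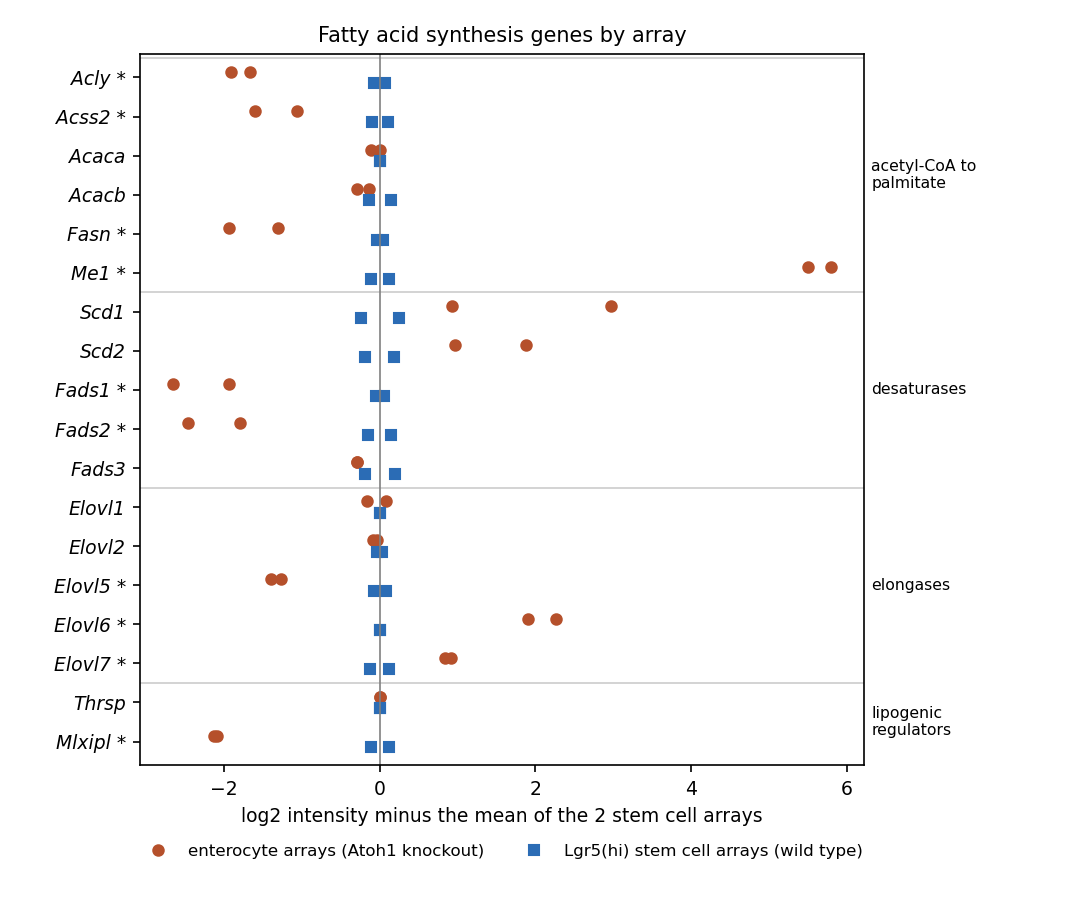
Log2 intensity of each fatty acid synthesis gene on each array, minus the mean of the 2 stem arrays of that gene. Circles are the 2 enterocyte arrays, squares the 2 stem arrays, and an asterisk marks an adjusted p under 0.05. Acly, Acss2, Fasn, Fads1, Fads2, Elovl5 and Mlxipl lie left of -1 in both enterocyte arrays, and Me1 lies beyond 5.

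Enzymes that supply acetyl-CoA and assemble palmitate were lower in enterocytes. Acly, which cleaves citrate to cytosolic acetyl-CoA, read 575 and 483 in enterocytes against 1919 and 1735 in stem cells, 3.46-fold lower (-1.79 ± 0.12, adjusted p = 0.00499). The brightest Acly probe set, like that of Fdft1, has a name that marks possible cross-hybridisation. A second Acly probe set above background also passed as lower (-0.65), and another above background gave 0.11. The remaining 2 lay at 10.3 to 14.8, below background in both groups, and give no fold. Acss2, which makes acetyl-CoA from acetate, read 559 and 385 against 1251 and 1089 (2.51-fold lower, -1.33 ± 0.23, adjusted p = 0.0258). A second Acss2 probe set gave -0.43 and did not pass. Fasn, fatty acid synthase, read 407 and 262 against 1035 and 977, 3.08-fold lower (-1.62 ± 0.26, adjusted p = 0.021). The acetyl-CoA carboxylases, which make malonyl-CoA, gave little signal: Acaca read 17.9 to 19.3 on all 4 arrays, below background, and Acacb read 107 and 95.9 against 107 and 130.2 (-0.22 ± 0.14, adjusted p = 0.315). Nothing can be said here of the rate-limiting step.

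Me1 ran against them and had the largest difference of all 42 members. Cytosolic malic enzyme yields NADPH, which fatty acid and sterol synthesis consume. Me1 read 4120.1 and 5056 in enterocytes against 98.3 and 83.6 in stem cells, at least 42.3-fold higher given the background level (5.65 ± 0.16, adjusted p = 0.00261). The deposited values give 50.3-fold, and the second probe set gave 5.83. Both Me1 probe sets thus showed a stem level below background and an enterocyte level far above it.

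Of 5 desaturases 2 fell and none rose past the test, where 22.4% of all genes fell and 18.2% rose. Fads1 and Fads2, neighbours on chromosome 19 whose products make long polyunsaturated fatty acids from dietary precursors, both fell. Fads1 read 296 and 180.2 in enterocytes against 1174 and 1096 in stem cells, 4.91-fold lower (-2.30 ± 0.29, adjusted p = 0.013). Fads2 read 538 and 338 against 2068 and 1684, 4.38-fold lower (-2.13 ± 0.29, adjusted p = 0.0156), with -1.94 on its second probe set, which also passed. Their other neighbour, Fads3, whose substrates are less well known, read 55.3 and 55.4 against 59.4 and 77.5, below background in all 4 arrays.

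The stearoyl-CoA desaturases Scd1 and Scd2, which make oleate and also lie close together on chromosome 19, were higher in every enterocyte array without passing the test. Scd2 read 1243 and 663 in enterocytes against 384 and 297 in stem cells (1.43 ± 0.39, adjusted p = 0.0695). It passed with the replicate block (adjusted p = 0.0305) and with genes below background left out (adjusted p = 0.0216). Scd1 read 36.7 and 151 against 16.3 and 22.7 (1.95 ± 0.83, adjusted p = 0.171). Its value above background came from enterocyte replicate 2 alone, the array in which Scd2 was the lower.

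Elongases showed 2 rises and 1 fall among 5, where 18.2% of all genes rose and 22.4% fell. Elovl6, which extends palmitate to stearate, read 1905 and 2443 in enterocytes against 507 and 508 in stem cells, 4.25-fold higher (2.09 ± 0.15, adjusted p = 0.00521). Its second probe set rose by 1.70. Elovl7, an elongase of saturated chains, read 1028 and 976 against 503 and 593 (1.83-fold, 0.88 ± 0.11, adjusted p = 0.0132), a call lost on its dimmer probe set (0.09) and with reference-gene median centring (0.26, adjusted p = 0.394). Elovl5, which works between the Fads2 and Fads1 steps, fell with them. It read 635 and 579.5 against 1610.1 and 1449, 2.52-fold lower (-1.33 ± 0.09, adjusted p = 0.00508), and -0.75 on its other probe set (adjusted p = 0.063 over all probe sets). The brightest Elovl5 probe set, too, has a name that marks possible cross-hybridisation.

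Elovl1, an elongase of very long saturated chains, read 2299 and 1942 in enterocytes and 2181 in both stem arrays, and the groups overlapped (-0.05 ± 0.11, adjusted p = 0.77). Another Elovl1 probe set read 1050.4 and 779 against 267 and 207 and rose by 1.94 (adjusted p = 0.0137 over all probe sets). The remaining one gave 0.20 and did not pass (adjusted p = 0.358 over all probe sets). It and the brightest have names that mark possible cross-hybridisation, and the one that rose has not. The probe sets of Elovl1 thus do not settle its direction. Elovl2, which extends long polyunsaturated chains, lay at 11.2 to 12.1 on all 4 arrays, below background.

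Of the lipogenic regulators, Mlxipl (ChREBP), the carbohydrate-responsive activator of lipogenic genes, read 800.5 and 822 in enterocytes against 3245 and 3813 in stem cells. It was 4.34-fold lower (-2.12 ± 0.11, adjusted p = 0.00343) on its 1 probe set. Thrsp, a lipogenic protein of liver and fat, had 71.9 on all 4 arrays, identical in the deposited values. Such ties occurred in 1 member in the enterocyte group and 5 in the stem group, and they lower the spread that limma sees.

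**Figure D3:**
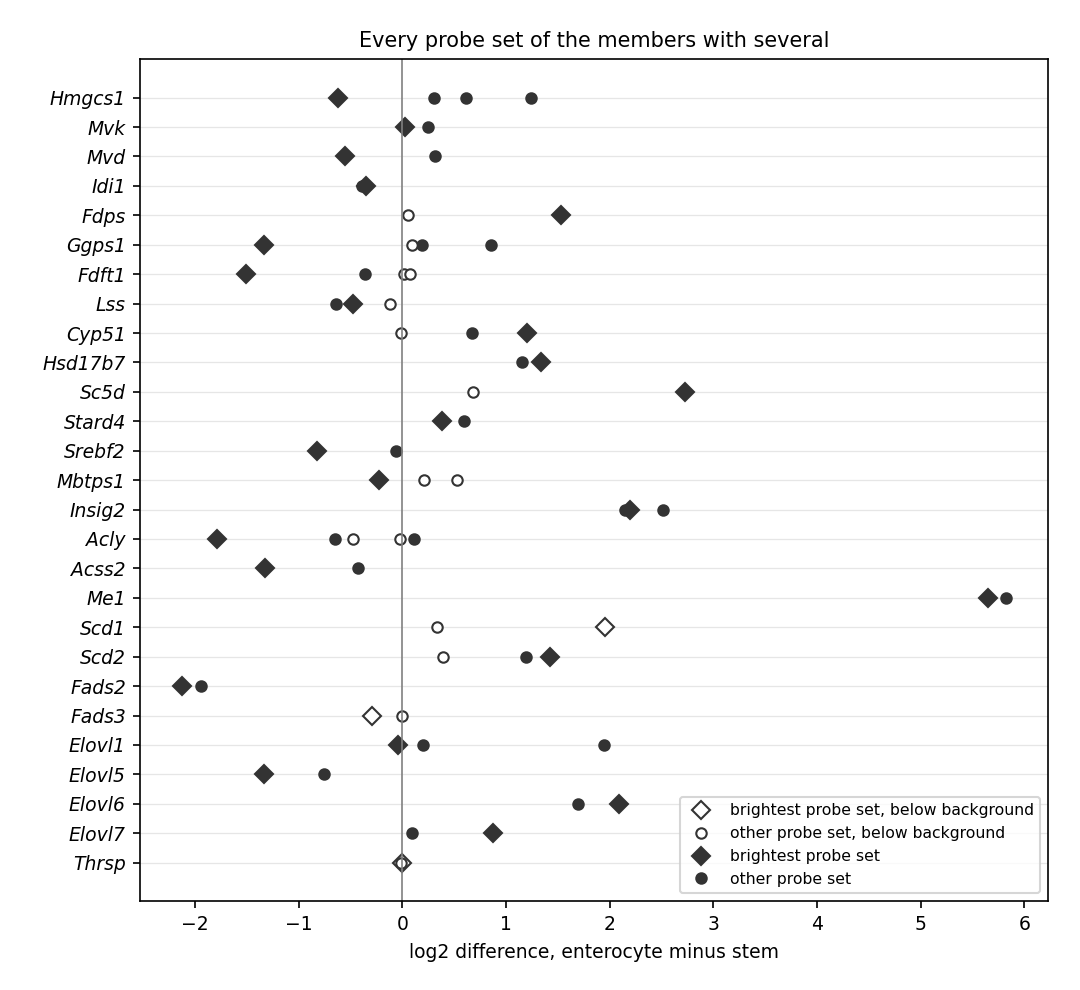
Log2 difference, enterocyte minus stem, of every probe set of the 27 members with several. Diamonds are the brightest probe set, circles the others, and open symbols lie below background in both groups. Insig2, Me1, Fads2, Elovl6 and Hsd17b7 keep their direction and size on all probe sets, while Hmgcs1, Ggps1 and Elovl1 spread to both sides of 0.

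Probe sets of 1 gene were compared throughout, since 27 of the 42 members had several. In 0 of the 27 did 2 probe sets pass in opposite directions. Every probe set of Insig2, Me1, Fads2, Elovl6 and Hsd17b7 passed in the same direction. Reading each gene on its dimmest probe set turned the sign of Hmgcs1, Mvd, Ggps1, Fdft1, Cyp51, Mbtps1 and Elovl1, of which Ggps1, Fdft1 and Cyp51 were called on the brightest. Those of Fdft1, Cyp51 and Mbtps1 lay below background in both groups, as did that of Ggps1. Reading the dimmest probe set also ended the calls of Fdps (0.0587), Sc5d (0.68), Srebf2, Acly, Acss2, Elovl5 and Elovl7. The dimmest probe sets of Fdps, Sc5d and Acly likewise lay below background in both groups.

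**Figure D4:**
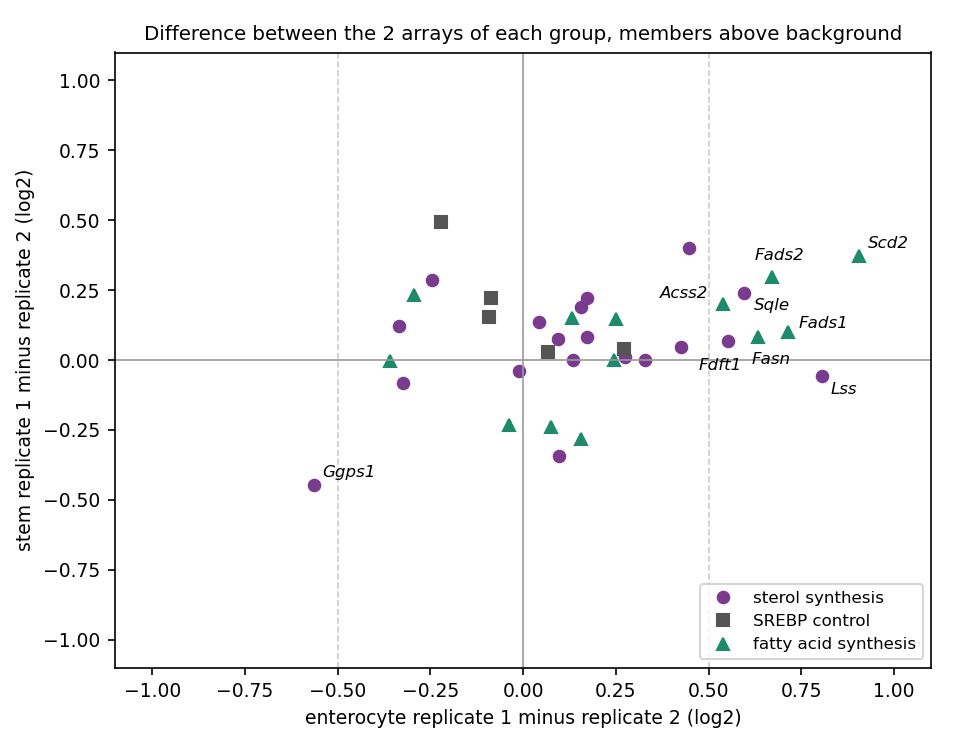
Difference between the 2 arrays of each group for the 37 members above background, enterocyte replicate 1 minus replicate 2 across and stem replicate 1 minus replicate 2 up, both log2. Dashed lines mark 0.5 on either side, and the 9 members beyond them are named. Of these 9, 8 lie to the right and Ggps1 to the left, and no member reaches 0.5 in the stem group.

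The 2 enterocyte arrays themselves differed in these genes. Among the 37 members with a mean level above background, 8 were higher in enterocyte replicate 1 than in replicate 2 by over 0.5 on the log2 scale (21.6%), against 272 of 7027 genes (3.87%). These were Fdft1 (0.55), Sqle (0.59), Lss (0.81), Acss2 (0.54), Fasn (0.63), Scd2 (0.91), Fads1 (0.71) and Fads2 (0.67), genes of both pathways. Ggps1 alone was lower in replicate 1 by as much (-0.56), 1 of 37 members against 576 of 7027 genes (8.20%). In the stem group 0 of the 37 members exceeded 0.5 with replicate 1 higher, against 1.84% of all genes. Summed Paneth cell markers were 678 in enterocyte replicate 1 and 6088 in replicate 2, and summed lymphocyte markers 8791 and 11850. Their part in the difference was not tested, and the animals behind each array are not named. Scd2, Lss, Fads2, Fads1 and Ggps1 had the 5 largest standard errors among these 37 members.

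Genes that surround these pathways also moved in both directions. They were taken from lists of known function. Among all 12393 genes, 18.2% were higher, 22.4% lower and 40.6% either, and the list counts were not tested against these shares. Among 11 other sterol and SREBP genes 4 rose and 3 fell. Erlin1, which helps degrade sterol-regulated enzymes, rose 1.98-fold (0.99 ± 0.08), Npc1, which exports cholesterol from lysosomes, 1.94-fold (0.96 ± 0.06), and the sterol carrier gene Stard3 1.83-fold (0.87 ± 0.17). Gpam, which starts glycerolipid assembly and is an SREBP target, fell 3.59-fold (-1.84 ± 0.19). With reference-gene median centring Erlin1, Npc1 and Stard3 no longer passed (0.37, 0.34 and 0.25).

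Of 17 other fatty acid synthesis genes 4 rose and 2 fell. Acsl5, which activates fatty acids with CoA, read 16699 and 19566 in enterocytes against 2504 and 2428 in stem cells (7.33-fold, 2.87 ± 0.10). Mlx, the dimer partner of the Mlxipl protein, read 1012 and 862 against 276 and 241 and rose 3.62-fold (1.85 ± 0.13), opposite to Mlxipl. Mlycd, which breaks down malonyl-CoA, rose 1.64-fold (0.71 ± 0.10) and lost its call with reference-gene median centring (0.10). Hacd3, a dehydratase of the elongation cycle, fell 2.47-fold (-1.30 ± 0.13), though its dimmest probe set gave 0.55 and did not pass.

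In the supply of NADPH and citrate 5 of 10 genes rose and 2 fell. Idh1, the cytosolic isocitrate dehydrogenase that yields NADPH, rose 4.47-fold (2.16 ± 0.19), as Me1 did. Citrate synthase, Cs, rose 2.84-fold (1.51 ± 0.05) and Aco1 1.79-fold (0.84 ± 0.15), while Pgls of the pentose phosphate pathway fell 1.96-fold (-0.97 ± 0.09). Aco1 lost its call with reference-gene median centring (0.22).

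In the list of the LXR pathway and sterol efflux 6 of 10 genes rose and 1 fell, at a median of 0.89. LXR is the receptor that senses oxysterols, and the list held a gene of LXR itself beside partners and targets. The 3 genes that did not pass were LXR targets, 2 of them below background in both groups, so its targets did not rise throughout. Lpcat3, which builds polyunsaturated phospholipids, read 6124 and 6368 in enterocytes against 658 and 604 in stem cells (9.90-fold, 3.31 ± 0.07). Abcg5, an exporter that returns sterols to the gut lumen, read 3710.4 and 3458 against 506 and 433 (7.65-fold, 2.93 ± 0.11), and Cyp27a1, which makes an oxysterol, rose 2.46-fold (1.30 ± 0.16). Rxrb, a partner receptor, fell 2.78-fold (-1.48 ± 0.08).

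In the non-sterol isoprenoid branch 3 of 13 genes rose and 3 fell, at a median of -0.01. Dolk, the kinase of dolichol, rose 3.25-fold (1.70 ± 0.11) and Icmt, which methylates prenylated proteins, 1.85-fold (0.89 ± 0.08). Coq7, of ubiquinone synthesis, rose by 0.58 ± 0.07 (log2), a direction that turned with reference-gene median centring (-0.04). Fntb, a farnesyltransferase subunit, fell 2.30-fold (-1.20 ± 0.11). The adjusted p of each gene named from these 5 lists was at most 0.0345, and that of each gene counted at most 0.047.

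**Figure D5:**
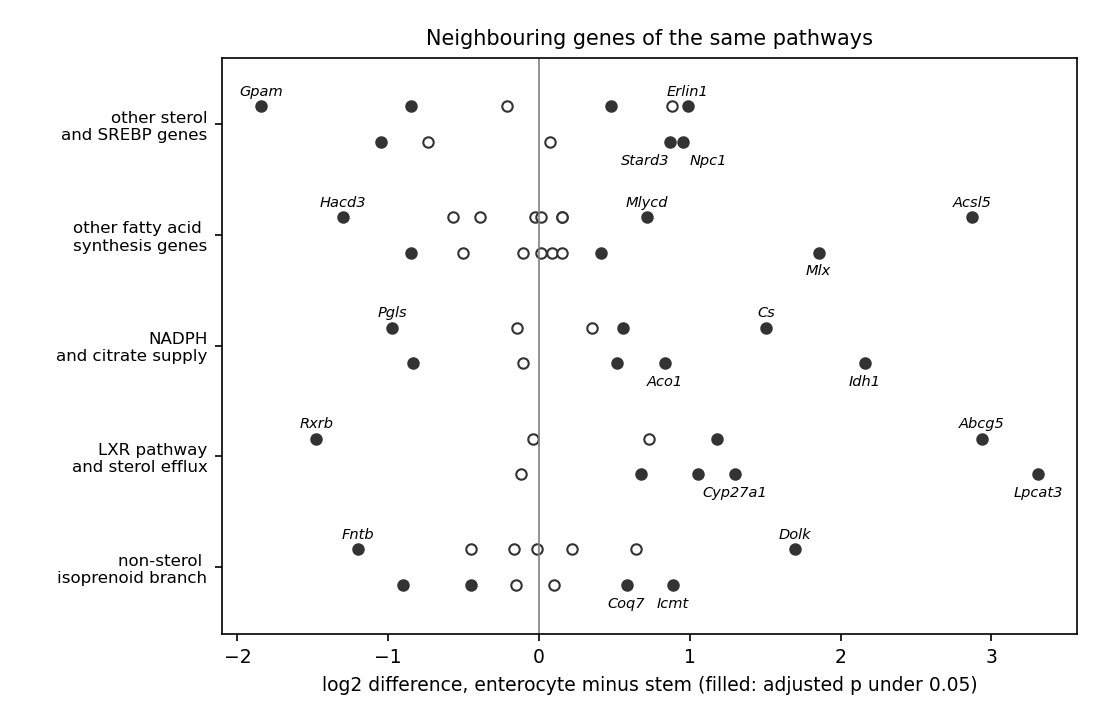
Log2 difference, enterocyte minus stem, of each measured gene in 5 lists around sterol and fatty acid synthesis. Filled circles passed an adjusted p of 0.05 by limma, and the genes named in the text are labelled. Lpcat3, Abcg5 and Acsl5 lie furthest to the right, and Gpam furthest to the left.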

How the data were processed

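RNA was measured on 4 Affymetrix mouse arrays. The authors deposited normalized intensities per probe set on a linear scale. The submitters' processing notes name RMA and give no version. RMA itself yields log2 values, whereas the deposited ones are linear, and no source used here records that conversion. Log2 was taken with no pseudocount, and 0 columns were without a sample. Of 22690 probe sets, 20380 had exactly 1 symbol in the platform annotation (691 several, 1606 not listed), giving 12393 genes, 4956 of them with several probe sets. Entrez identifiers of 20351 matched the RefSeq table of GRCm38.p6, and 29 did not.

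Two-sided limma tests (version 3.58.1, R 4.3.3; lmFit, then eBayes) were adjusted by Benjamini-Hochberg across the 12393 genes (2 residual and 1.23 prior degrees of freedom). The SE is limma's. Probe sets were also fitted together over all 20380, and their p-values are named as such. Where 1 group lay below background, the fold is "at least" the brighter mean over the other group raised to that level. On simulated arrays of 12393 genes with 40% of them changed, limma recovered 66.7%, 88.4%, 98.8% and 99.8% of changes of 0.5, 1, 2 and 4 (log2), with 201 of 4588 calls false; with 200 genes changed it recovered 0%, 36%, 72% and 96%.

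The members, lists and alternatives were chosen with earlier results of these data known. Named genes are all members, Atoh1 and Lgr5, and in each related list at most 3 called genes, those furthest from 0 in the direction most calls took, and the furthest called gene of the opposite direction; where the directions tied, rises were taken as the main one. Same-numbered replicates deviated together at r = 0.05 over genes, and the labels do not say that a number marks a shared animal or day. The number of arrays limits the precision.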

Additional observations from a re-analysis of the deposited data

How the results depend on the processing

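Counts are given as rises and falls in enterocytes, 7 and 3 of 19 sterol genes, 1 and 2 of 5 SREBP control genes, 3 and 7 of 18 fatty acid genes, and 2257 and 2779 of all genes. With the replicate block 2010 and 2557 genes passed, 1 member gained a call (Scd2) and none lost one; quantile normalization, an intensity trend and array weights also ended no member call. Falls of sterol genes were 1 on the dimmest probe sets, 8 and 9 with centring on the median or mean of reference genes, 5 with dim genes left out, and 0 with values raised to background, at the 90th percentile or at the 75th, a level chosen after the data were seen. Falls of SREBP control genes were 1 on the dimmest probe sets and 1 with values raised to either level. At least 2-fold, 0 of them fell. Centring also made 3 of these 5 genes fall. Fatty acid falls were 4 on the dimmest probe sets. They were also 4 without probe sets whose names end in _x_at, _s_at or _a_at, endings that do not all mark cross-hybridisation. That setting left 37 of the 42 members to test, and Mlxipl was not among them. Fatty acid falls were 13 under both centrings and 3 or 4 with values raised. Over all genes, median centring gave 1148 rises and 6700 falls, mean centring 1739 rises and 6769 falls, values raised to background 1402 and 1738, and a 2-fold minimum 1344 and 1689. Leaving out 1 array gave 0 to 3 sterol rises and 0 to 3 falls, 0 to 0 SREBP control rises and 0 to 2 falls, 0 to 2 fatty acid rises and 0 to 3 falls, and 0 to 663 rises and 0 to 1058 falls over all genes. Without either stem array all of these counts were 0, and SREBP control rises were also 0 without either enterocyte array. Directions, called or not, turned on the dimmest probe set for Hmgcs1 (1.24), Mvd (0.32), Mbtps1 (0.52), Ggps1 (0.0916), Fdft1 (0.0739), Cyp51 (-0.0136), Elovl1 (1.94) and Hacd3 (0.55), with the mean over probe sets for Hmgcs1 (0.39), Mbtps1 (0.17) and Elovl1 (0.70), and with the median for Hmgcs1 (0.46), Mbtps1 (0.24), Elovl1 (0.11), Ggps1 (0.13) and Acly (0.11). Without probe sets named _x_at, _s_at or _a_at, Hmgcs1 (0.62) and Mvd (0.32) turned. Mean centring turned Mvk (-0.37), Nsdhl (-0.30), Stard4 (-0.0058) and Srebf1 (-0.20). Median centring turned Mvk (-0.59), Sqle (-0.0942), Nsdhl (-0.53), Stard4 (-0.23), Srebf1 (-0.43) and Coq7 (-0.0375). Among the named genes only Elovl1 turned when 1 array was left out (-0.17 to 0.0759, the highest without enterocyte replicate 2). Their causes were not tested, beyond the change of probe set or shift that each setting makes.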
